A study of Mus musculus with 42 samples.

Results

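Eomes and Tbx21, which encode the T-box transcription factors Eomes and T-bet, the Runx family genes Runx1, Runx2 and Runx3, and Cbfb, the gene of their shared DNA-binding partner, were followed in mouse uterine tissue-resident NK (trNK) cells. They were chosen by name and make up 6 of the 54353 genes shared by the 34 bulk RNA-seq files and 6 of the 35237 genes of the joined single-cell matrix. All 6 passed the filter on low counts in each of the 4 bulk experiments.

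T-box factors bind DNA through a common domain and direct the development of innate lymphocytes. T-bet and Eomes both support conventional NK (cNK) cells, in which they drive maturation and the cytotoxic program, whereas T-bet alone is the usual T-box factor of type 1 innate lymphoid cells. Runx proteins bind DNA through the Runt domain, and the partner encoded by Cbfb binds no DNA itself but strengthens that contact. Runx3 is the Runx factor best known from mature NK and cytotoxic T cells, Runx1 is required for blood stem cells and early lymphocytes, and Runx2 is known mainly from bone.

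The study asked how trNK cells change while the uterine lining forms the decidua and what IL-21, a cytokine that signals through STAT3, adds to that change. All mice were wild-type C57BL/6 of 8 to 12 weeks. Bulk libraries were made in pairs, so that each of 17 groups held 2 libraries. In the gestation experiment, CD45+NK1.1+NKp46+CD49a+CXCR6- cells were sorted from the uterus of virgin mice, of mice at gestation day 6.5 (gd6.5) and of mice at day 8.5 (gd8.5). In the subset experiment the same gate at gd8.5 was split by the surface proteins CD55 and 4-1BB into low, intermediate and high cells, named trNK-V, trNK-D and trNK-T by the authors. In the inhibitor culture, trNK-V cells of gd6.5 mice were kept for 3 days in IL-15 alone, with 20 ng/ml IL-21, or with IL-21 and 1 µM Stattic, an inhibitor of STAT3, and live NK1.1+ cells were taken. In the time course, trNK-V cells of gd6.5 mice were likewise cultured in IL-15 for 0, 6, 24 or 72 h with or without 20 ng/ml IL-21. The labels give 10 ng/ml IL-15 for the time-course samples but another dose in the protocol text, and the methods print the Stattic dose in another unit than the labels. For the single cells, CD45+NK1.1+NKp46+ cells were pooled from 5 virgin mice and from 2 mice at gd8.5. The labels do not say whether paired libraries came from separate animals or cultures, and the figure legends of the study speak of independent experiments without tying them to libraries, so p-values measure the spread between these libraries, which may be technical. In bulk libraries, fewer cells of a type and less RNA per cell cannot be told apart.

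In the exon positions listed beside the counts (GRCm38, mm10), Eomes spans 118478212 to 118486132 of chromosome 9 on the plus strand. Tbx21 spans 97098071 to 97115331 of chromosome 11 on the minus strand. Runx1 spans 92601466 to 92826149 of chromosome 16 and Runx2 spans 44495987 to 44814797 of chromosome 17, both on the minus strand. Runx3 spans 135120652 to 135177990 of chromosome 4 and Cbfb spans 105170674 to 105217989 of chromosome 8, both on the plus strand.

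Runx genes are known to be transcribed from an upstream and a downstream promoter. RefSeq promoter windows (GRCm38.p6, 250 bases before to 50 bases after a start site) were found for all 6 genes, 8 windows in all. The Runx core, TGTGGT or TGCGGT on either strand, stood 2 times in the upstream window of Runx1, 4 times in that of Runx2 and 2 times in that of Runx3, and it was found in 22.4% of 32851 windows of the same length. At least 2 such cores were found in 2.82% of the windows. The 3 upstream windows also shared 1 run of 18 bases, which holds 2 cores on the opposite strand and was found in 4 windows of 32851 (0.0122%), those of Runx1, Runx2, Runx3 and Gm16225. Its first base lay 26 bases after the start site in Runx1 and 21 after it in Runx2, but 136 before it in Runx3 (written as an offset of -136). The 3 stretches of 80 bases are shown because they align the members of the Runx family by this run, which is in capitals. They lie at chr16:92826025-92826104 (minus strand), chr17:44814578-44814657 (minus strand) and chr4:135120478-135120557 (plus strand) and are printed 5′ to 3′.
Runx1: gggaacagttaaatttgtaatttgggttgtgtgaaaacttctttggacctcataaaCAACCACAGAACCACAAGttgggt
Runx2: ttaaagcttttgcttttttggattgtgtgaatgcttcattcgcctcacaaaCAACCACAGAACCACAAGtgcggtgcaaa
Runx3: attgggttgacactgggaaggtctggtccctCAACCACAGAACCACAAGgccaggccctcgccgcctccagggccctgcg

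The windows of Eomes, Tbx21 and Cbfb, and the downstream windows of Runx1 and Runx3, held no Runx core. None of the 8 windows held the T-box core AGGTGT on either strand, which was found in 13.7% of all windows. The Tbx21 window (RefSeq, GRCm38.p6, chr11:97115282-97115581, minus strand) is shown because Tbx21 was, with Runx1, the member that differed between subsets below. It has no capitals because neither core was found in it.
Tbx21: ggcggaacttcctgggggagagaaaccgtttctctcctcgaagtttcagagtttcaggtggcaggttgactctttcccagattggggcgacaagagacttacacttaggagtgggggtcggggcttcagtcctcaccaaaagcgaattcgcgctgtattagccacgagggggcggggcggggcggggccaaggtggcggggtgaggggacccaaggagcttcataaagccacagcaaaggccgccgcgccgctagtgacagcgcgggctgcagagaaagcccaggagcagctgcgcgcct

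Total counts per library were 16422380 to 22956216 for gestation, 11862089 to 20786471 for the subsets, 12189886 to 29537298 for the inhibitor culture and 28541369 to 66468883 for the time course. Paired libraries differed by more than counting noise in every group, and the 2 libraries at 72 h without IL-21 were the least alike (Pearson r of log counts 0.54 across genes). The NK cell genes Ncr1 (NKp46) and Klrb1c (NK1.1) were present in every library. The 2 virgin libraries stood apart from each other. In virgin replicate 1 the 10 trNK marker genes summed to 1633 RPKM, with 4 of them at 0 counts, against 18080 RPKM in virgin replicate 2 and 8635 to 18827 RPKM at gd6.5 and gd8.5. These markers include Tnfrsf9 (4-1BB) and Spp1, which also mark terminal cells. Gzmb was 166 RPKM in virgin replicate 1, 9287 in virgin replicate 2 and 10244 and 9936 at gd8.5. Tcf7 was 75.5, 13.5, 11.5 and 8.22 RPKM in the same order. For Klrg1 (273, 967, 360 and 439 RPKM) and Ccl5, virgin replicate 1 lay nearer to gd8.5. Which virgin library is the typical one was not tested. The 7 T cell markers summed to 263.1 RPKM in virgin replicate 1, against 50.04 RPKM in virgin replicate 2, with 4 of the 7 at 0 counts in each. trNK-D replicate 2 carried plasma cell transcripts (1898 RPKM over 4 markers, against 31.4 to 112.9 RPKM in the other 5 subset libraries). Of the gestation libraries, gd8.5 replicate 2 and virgin replicate 2 carried erythrocyte transcripts (854.8 and 237.5 RPKM over 5 markers, against 0.239 to 12.3 RPKM in the other 4).

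Levels are RPKM, reads scaled to exon length and library size, the latter by TMM (a trimmed mean that sets libraries of one experiment to a common size), and can therefore be compared between genes. Across the 18 libraries of gestation, subsets and inhibitor culture, Eomes, Tbx21, Runx3 and Cbfb were the high members and Runx1 and Runx2 the low ones, except that Tbx21 lay below Runx1 in virgin replicate 1. Eomes had a median of 47.8 RPKM in the gestation libraries (34.2 to 63.4), 42.0 in the subsets (30.1 to 44.6) and 47.2 in the inhibitor culture (25.1 to 56.5). Tbx21 had a median of 45.1 RPKM in gestation (4.56 to 63.4), 39.2 in the subsets (18.7 to 58.0) and 26.0 in the culture (10.5 to 40.0). Runx3 had a median of 30.3 RPKM in gestation (25.8 to 54.5), 39.5 in the subsets (34.1 to 50.2) and 30.6 in the culture (10.9 to 76.2). The ranges of these 3 genes overlapped in each experiment, and the order within a library changed with the experiment. In gestation Eomes lay above Runx3 in 6 of 6 libraries and above Tbx21 in 1, in the inhibitor culture above Tbx21 in 6 of 6 and above Runx3 in 4, and in the subsets above Runx3 in 3 and above Tbx21 in 2. Cbfb lay between 18.4 and 39.4 RPKM in all 18 libraries. Runx1 stayed between 2.01 and 7.06 RPKM and Runx2 between 0.602 and 9.32 RPKM, and every Runx3 value lay above every Runx1 and Runx2 value. In the library sums of the 3 Runx genes, Runx3 made up 51.5% to 93.8%.

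**Figure D1:**
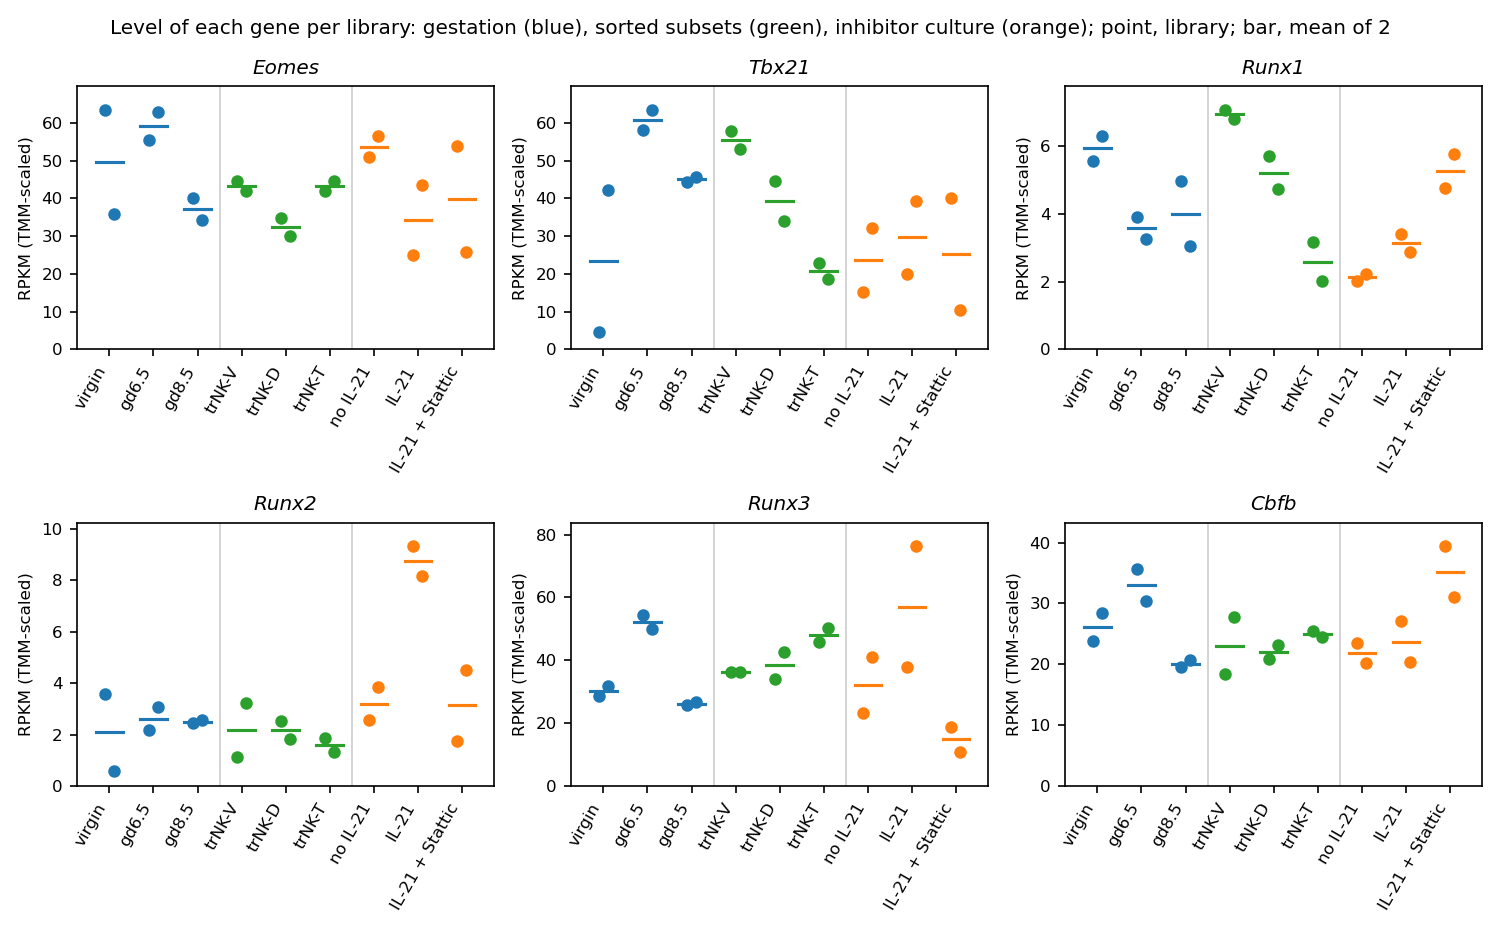
Level of each gene (RPKM, TMM-scaled, linear axes from 0) in the 18 libraries of the gestation, subset and inhibitor culture experiments; each point is a library and each bar the mean of 2. Tbx21 and Runx1 descend from trNK-V (58.0 and 53.2, and 7.06 and 6.81 RPKM) to trNK-T (22.8 and 18.7, and 3.17 and 2.01 RPKM), and Tbx21 of virgin replicate 1 (4.56 RPKM) lies far below its replicate (42.3 RPKM).

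In the gestation experiment, 0 of 6 members passed the test in any of the 3 comparisons (edgeR quasi-likelihood test, adjusted p below 0.05 after Benjamini-Hochberg adjustment over all genes tested). The test called 5 of 14040 genes at gd6.5 against virgin (0.0356%), 5 at gd8.5 against virgin (0.0356%) and 0 at gd8.5 against gd6.5 (0.0%). In the same order, an unadjusted p below 0.05 was found for 2 members (Runx1 and Runx3), 0 members and 2 members (Runx3 and Cbfb), beside 17.2%, 10.0% and 11.7% of all genes. DESeq2 called 1 member (Runx3), 0 and 2 (Runx3 and Cbfb), beside 9.29%, 2.86% and 4.37% of all genes. With limma-voom 0 members were called in each, beside 1.08%, 0.057% and 0.0% of all genes. The libraries of 2 groups did not overlap for 4 members at gd6.5 against virgin, 4 at gd8.5 against virgin and 4 at gd8.5 against gd6.5, but they did not overlap either for 47.0%, 38.9% and 50.5% of all genes tested.

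Among the T-box genes, Eomes was 63.4 and 36.0 RPKM in virgin mice, 55.6 and 62.8 at gd6.5, then 40.0 and 34.2 at gd8.5. The virgin pair overlapped both other groups, while both gd8.5 libraries lay below both gd6.5 libraries. At gd8.5 against gd6.5 its log2 fold change was -0.67 (SE 0.29, adjusted p = 0.431). Tbx21 was 4.56 and 42.3 RPKM in virgin mice, 58.1 and 63.4 at gd6.5, then 44.4 and 45.8 at gd8.5. Virgin replicate 1 alone was low, and all pregnant libraries lay above both virgin libraries. At gd6.5 against virgin its log2 fold change was 1.38 (SE 0.82, adjusted p = 0.448). It was 0.53 without virgin replicate 1 and 3.75 without virgin replicate 2, so the value rests on which virgin library is kept. With no gene filter edgeR gave 1.39 (adjusted p = 2.0e-05), but that setting called 1216 genes here, against 5 in the main fit. The virgin pair in that fit is the same 4.56 and 42.3 RPKM. At gd8.5 against virgin the same leave-outs gave 0.09 and 3.29 around a value of 0.95 (SE 0.82, adjusted p = 0.742). With no gene filter the edgeR adjusted p was 0.0234, where 563 genes were called, against 5 in the main fit. Tbx21 made up 6.71% of the summed Eomes and Tbx21 RPKM in virgin replicate 1 and 50.2% to 57.2% in the other 5 libraries.

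Of the Runx factors, Runx3 was 28.7 and 31.8 RPKM in virgin mice, 54.5 and 50.03 at gd6.5, then 25.8 and 26.6 at gd8.5. Both gd6.5 libraries stood above the rest, and the gd8.5 libraries lay just below the virgin ones. Runx3 had a log2 fold change of 0.79 (SE 0.17, adjusted p = 0.113) at gd6.5 against virgin and of -0.99 (SE 0.17, adjusted p = 0.244) at gd8.5 against gd6.5. Where only genes with an RPKM above 10 were tested, the first was called (log2 fold change 0.74, adjusted p = 0.0314), as it was without any filter and by DESeq2 (adjusted p = 8.5e-04). Without virgin replicate 2 the first was 0.88, but that fit rests on virgin replicate 1 alone, and the 2 virgin libraries stood apart from each other. Wherever leaving out a library leaves a group with 1, here and in the other experiments, the fit assumes that this library varies like the other groups. The second was called by DESeq2 (adjusted p = 2.5e-05), without a filter (adjusted p = 0.0045), in a fit of these 2 groups alone (adjusted p = 0.0497) and without either virgin library (adjusted p = 0.0306 and 0.0399), with a log2 fold change of -0.94 to -1.06 when any 1 library was left out. Runx1 ran the other way, with 5.56 and 6.31 RPKM in virgin mice, 3.90 and 3.25 at gd6.5, then 4.96 and 3.06 at gd8.5. The virgin libraries were the highest and the 2 pregnant groups overlapped. Its log2 fold change at gd6.5 against virgin was -0.73 (SE 0.29, adjusted p = 0.262). Runx2 was 3.60 and 0.602 RPKM in virgin mice, 2.16 and 3.06 at gd6.5, then 2.45 and 2.56 at gd8.5, and the virgin pair enclosed all other values. Its log2 fold change at gd6.5 against virgin of 0.31 (SE 0.72, adjusted p = 0.886) became 2.12 (adjusted p = 0.0458) without virgin replicate 1. Cbfb, the partner of all 3, was 23.9 and 28.4 RPKM in virgin mice, 35.6 and 30.5 at gd6.5, then 19.6 and 20.7 at gd8.5. It had the same order as Runx3, with log2 fold changes of 0.34 (SE 0.20, adjusted p = 0.447) at gd6.5 against virgin and -0.72 (SE 0.20, adjusted p = 0.290) at gd8.5 against gd6.5. Between these days the T cell markers summed to 61.5 and 35.3 RPKM at gd6.5 and to 155.8 and 173.04 RPKM at gd8.5. In the same order, cNK markers summed to 23.0 and 20.5 and to 57.7 and 35.2 RPKM, macrophage markers to 10.2 and 10.5 and to 17.7 and 21.4 RPKM, and dividing-cell markers to 133.8 and 89.7 and to 74.1 and 77.7 RPKM. In virgin mice the same 3 sums were 96.8 and 48.6 RPKM (cNK), 19.3 and 31.1 RPKM (macrophage) and 38.3 and 81.5 RPKM (dividing), without overlap with gd6.5. The part of these cells in the differences of Eomes, Runx1, Runx3 and Cbfb was not tested. The methods add a lineage-negative step to the gate, and the study defines cNK cells as lacking CD49a. The sort was thus meant to leave T and cNK cells out.

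In the subset experiment, Tbx21 and Runx1 fell from trNK-V to trNK-T, the only 2 of the 6 members called in any comparison of the bulk libraries by the main test. For trNK-T against trNK-V the test called 1137 of 14335 genes (7.93%), of which 531 were lower (3.7%), against 2 of 6 members, both lower. No member was called for trNK-D against trNK-V, where 1 gene was (0.00698%), or for trNK-T against trNK-D, where 11 genes were (0.0767%). At an unadjusted p below 0.05 those 2 comparisons held 1 member (Eomes) and 3 (Eomes, Tbx21 and Runx1), beside 12.3% and 11.5% of all genes. DESeq2 called 0 and 2 (Tbx21 and Runx1), beside 4.17% and 4.65% of all genes, and limma-voom 0 and 0, beside 0.0558% and 0.0209%. For trNK-T against trNK-V the same 2 members stood out at an unadjusted p, with DESeq2 and with limma-voom, beside 27.3%, 21.1% and 6.78% of all genes. The pairs did not overlap for 3 members at trNK-D against trNK-V (42.8% of all genes), 3 at trNK-T against trNK-V (59.4%) and 5 at trNK-T against trNK-D (47.9%).

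Tbx21 was 58.0 and 53.2 RPKM in trNK-V, 44.5 and 33.9 in trNK-D and 22.8 and 18.7 in trNK-T. The 3 subsets formed 3 steps without overlap. The log2 fold change of trNK-T against trNK-V was -1.42 (SE 0.22, adjusted p = 0.0193), with means of 20.8 ± 2.91 (SD, n = 2) and 55.6 ± 3.40 RPKM (SD, n = 2). For trNK-T against trNK-D it was -0.92 (SE 0.22, adjusted p = 0.246) and for trNK-D against trNK-V it was -0.50 (SE 0.21, adjusted p = 0.415), so neither single step passed the test. Eomes, the other T-box gene, was 44.6 and 41.9 RPKM in trNK-V, 34.9 and 30.1 in trNK-D and 42.0 and 44.6 in trNK-T. trNK-V and trNK-T overlapped and trNK-D lay below both, with a log2 fold change of trNK-T against trNK-V of 0.00 (SE 0.16, adjusted p = 0.997). Tbx21 thus made up 56.5% and 55.9% of the summed T-box RPKM in trNK-V, 56.1% and 53.0% (52.95%) in trNK-D and 35.2% and 29.5% in trNK-T.

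Runx1 was 7.06 and 6.81 RPKM in trNK-V, 5.70 and 4.73 in trNK-D and 3.17 and 2.01 in trNK-T. It formed the same 3 steps without overlap as Tbx21. The log2 fold change of trNK-T against trNK-V was -1.42 (SE 0.28, adjusted p = 0.0333), and that against trNK-D was -1.01 (SE 0.28, adjusted p = 0.279). Runx3 was 36.3 and 36.3 RPKM in trNK-V, 34.1 and 42.7 in trNK-D and 45.7 and 50.2 in trNK-T. Both trNK-T libraries were the highest, and trNK-V lay within the range of trNK-D. The log2 fold change of trNK-T against trNK-V was 0.40 (SE 0.17, adjusted p = 0.194). Runx2 was 1.13 and 3.22 RPKM in trNK-V, 2.52 and 1.82 in trNK-D and 1.85 and 1.33 in trNK-T, and Cbfb was 18.4 and 27.7, 20.9 and 23.2, and 25.6 and 24.5 RPKM. For both genes trNK-V enclosed trNK-D and trNK-T, with log2 fold changes of trNK-T against trNK-V of -0.45 (SE 0.56, adjusted p = 0.653) and 0.12 (SE 0.24, adjusted p = 0.796). Runx1 made up 15.9% and 14.7% of the summed Runx RPKM in trNK-V and 6.25% and 3.76% in trNK-T, and Runx3 81.6% and 78.3% (78.35%) against 90.1% and 93.8%.

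The calls of Tbx21 and Runx1 held under every other normalization, filter and tool in which the gene was tested, but both were lost when any single trNK-V or trNK-T library was left out (log2 fold changes of -1.28 to -1.57 and -1.12 to -1.78, adjusted p up to 0.128 and 0.187). Markers of other cells moved beside them. The 7 T cell markers summed to 153.3 and 150.8 RPKM in trNK-V, 57.4 and 92.0 in trNK-D and 34.03 and 30.4 in trNK-T, with Cd8a at 0 in all 6 libraries and Cd4 at most 0.0117 RPKM. The 7 macrophage markers summed to 45.0 and 275.4 RPKM in trNK-V, 256.0 and 364.8 in trNK-D and 18.9 and 16.2 in trNK-T, and Lyz2 alone ran from 2.05 to 313.8 RPKM over the 6 libraries. The 8 cNK markers summed to 107.8 and 101.5 RPKM in trNK-V, 253.9 and 147.6 in trNK-D and 169.0 and 66.6 in trNK-T, and did not follow the steps of Tbx21. The 6 markers of type 1 innate lymphoid cells summed to 13.4 and 46.9 RPKM in trNK-V, 10.4 and 19.1 in trNK-D and 0.415 and 0.248 in trNK-T, lowest in trNK-T like Tbx21 and Runx1, although the gate left out cells with surface CXCR6, which marks such cells. The 4 markers of dividing cells ran the other way, with 43.4 and 49.1 RPKM in trNK-V, 28.3 and 125.6 in trNK-D and 88.5 and 131.6 in trNK-T, so that both trNK-T libraries stood above both trNK-V libraries. The part of these cells and of division in the 2 results was not tested.

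In the inhibitor culture, 0 of 6 members were called with IL-21 against the control, as were 0 of 13647 genes (0.0%), and 0 of 6 with Stattic added to IL-21, where 1 gene was (0.00733%). At an unadjusted p below 0.05, 1 member (Runx2) and 710 genes (5.2%) stood out with IL-21, and 2 members (Runx2 and Runx3) and 1735 genes (12.7%) with Stattic. DESeq2 called 0 and 1 (Runx3), beside 1.41% and 5.5% of all genes, and limma-voom 0 and 0, beside 0.0293% and 0.139%. The pairs did not overlap for 3 members with IL-21 (33.7% of all genes) and for 4 with Stattic (41.9%). Both comparisons share the 2 IL-21 libraries.

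Eomes was 50.9 and 56.5 RPKM in the control, 25.1 and 43.5 with IL-21 and 53.9 and 25.9 with IL-21 and Stattic. Both IL-21 libraries lay below both controls and the Stattic pair overlapped both groups. With IL-21 the log2 fold change was -0.65 (SE 0.45, adjusted p = 1). Tbx21 was 15.2 and 32.1 RPKM in the control, 20.0 and 39.4 with IL-21 and 40.0 and 10.5 with Stattic, and all 3 groups overlapped. Runx2 was 2.55 and 3.86 RPKM in the control, 9.32 and 8.19 with IL-21 and 1.77 and 4.51 with Stattic. The IL-21 libraries stood clear above both other groups. The log2 fold change was 1.45 (SE 0.53, adjusted p = 0.921) with IL-21 and -1.48 (SE 0.53, adjusted p = 0.359) when Stattic was added. Runx3 was 23.2 and 40.9 RPKM in the control, 38.0 and 76.2 with IL-21 and 18.8 and 10.9 with Stattic. The Stattic libraries were the lowest and the other groups overlapped. Stattic with IL-21 against IL-21 gave a log2 fold change of -1.94 (SE 0.50, adjusted p = 0.224), and it was called by DESeq2 (adjusted p = 0.00463) and without a filter (adjusted p = 7.6e-04). Runx1 was 2.02 and 2.23 RPKM in the control, 3.41 and 2.86 with IL-21 and 4.78 and 5.77 with Stattic. These were 3 rising steps without overlap, with log2 fold changes of 0.56 (SE 0.36, adjusted p = 1) and 0.75 (SE 0.36, adjusted p = 0.446). Cbfb was 23.4 and 20.3 RPKM in the control, 27.2 and 20.3 with IL-21 and 39.4 and 31.1 with Stattic, where both libraries were the highest (log2 fold change 0.57, SE 0.32, adjusted p = 0.501). The cNK markers summed to 56.1 and 37.1 RPKM in the control, 59.3 and 77.9 with IL-21 and 119.8 and 131.3 with Stattic, and those of dividing cells to 90.8 and 43.2, 84.6 and 36.2, and 24.7 and 28.7 RPKM. Macrophage markers summed to 18.9 and 15.7 RPKM in the control and 31.6 and 21.4 with IL-21, with 6 of the 7 at 0 counts in each of these libraries. With Stattic the cNK sum was thus higher and the dividing sum lower without overlap, and their part in the differences of the members was not tested.

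The time-course libraries held far less of most members than the other 3 experiments. Tbx21 was 0 to 2.51 RPKM, Runx1 0.0732 to 1.46 RPKM and Runx3 1.65 to 7.04 RPKM over the 16 libraries, each below every library of the other experiments. Eomes had a median of 11.8 RPKM (6.86 to 49.7) and Runx2 of 1.084 RPKM (0 to 2.01). Of the members, Cbfb alone kept its level, with a median of 25.1 RPKM (14.7 to 39.2). Ncr1, an activating receptor of NK cells, had 433 to 1309 RPKM in the time course, beside 474 to 1040 RPKM in gestation, 537 to 951 RPKM in the subsets and 49.3 to 433 RPKM in the inhibitor culture, the lowest range. The labels name another cDNA kit for these libraries than the methods give for bulk RNA-seq, and kit and experiment cannot be told apart. Levels were therefore compared only within the time course.

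**Figure D2:**
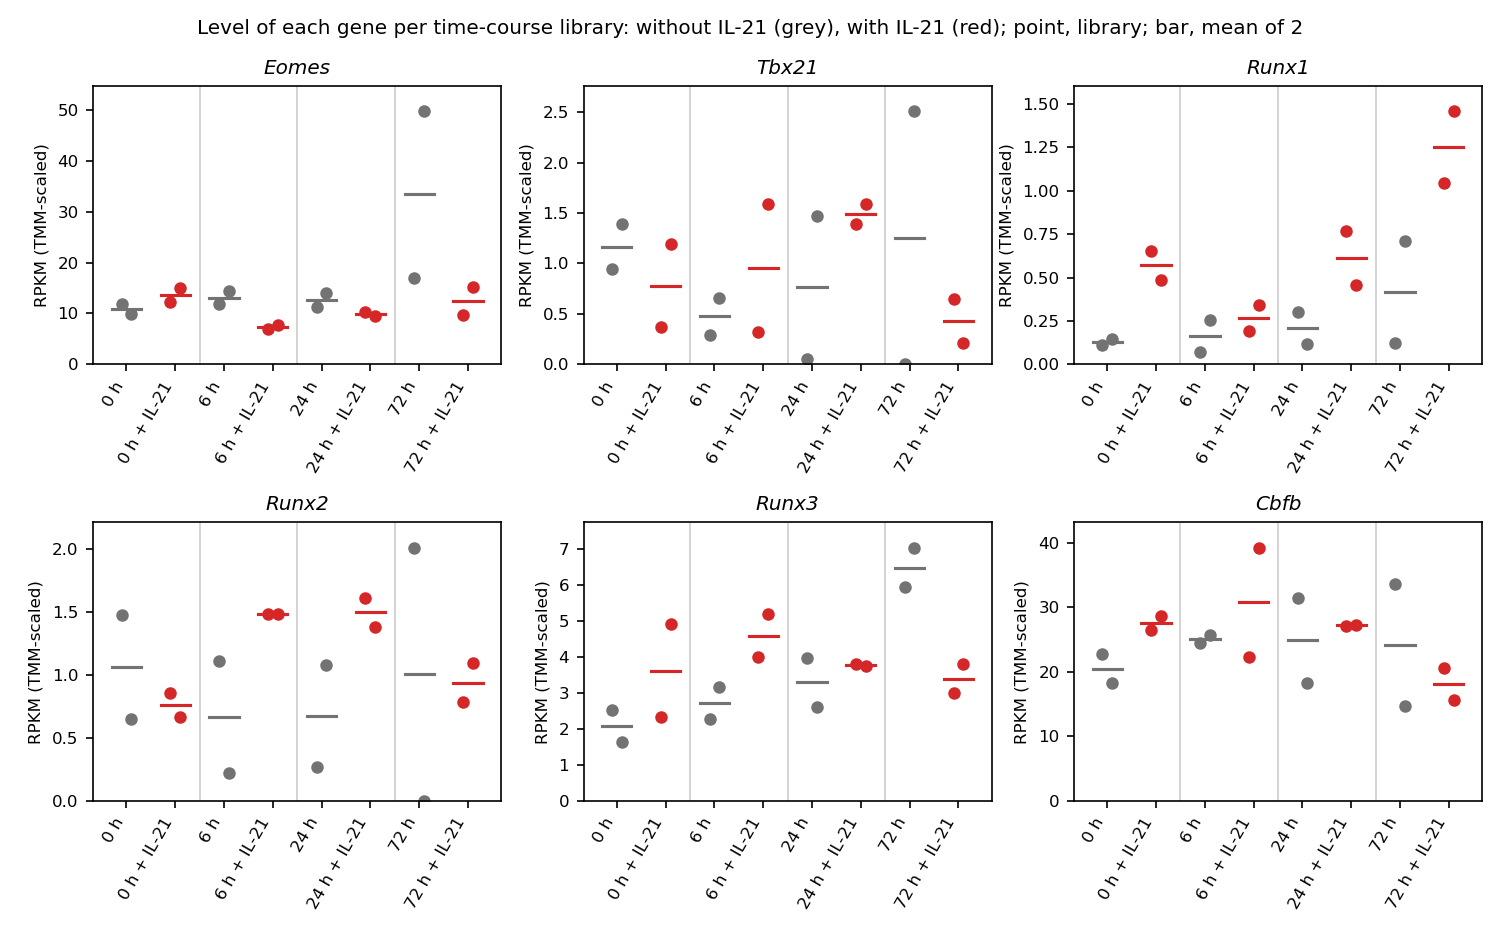
Level of each gene (RPKM, TMM-scaled, linear axes from 0 that differ between genes) in the 16 libraries of the time course, without IL-21 in grey and with IL-21 in red; each point is a library and each bar the mean of 2. Eomes with IL-21 lies below Eomes without it at 6, 24 and 72 h, and the 2 libraries at 72 h without IL-21 lie far apart (17.0 and 49.7 RPKM).

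No member was called with IL-21 at 6 h, 24 h or 72 h, against 10 (0.0672%), 1 (0.00672%) and 769 (5.17%) of 14879 genes. At an unadjusted p below 0.05 the members were 0, 0 and 1 (Eomes), beside 4.5%, 5.17% and 19.5% of all genes. DESeq2 called 0, 0 and 1 (Eomes), beside 1.38%, 1.47% and 15.5%, and limma-voom 0 at each time, beside 0.444%, 0.0807% and 5.18%. The pairs did not overlap for 3 members at each of these times, against 41.8%, 46.1% and 29.5% of all genes. For the mean of the 3 IL-21 differences, a comparison added after the values were seen, 0 members and 501 genes (3.37%) were called, with 2 members (Eomes and Runx1) at an unadjusted p below 0.05, 1 (Eomes) called by DESeq2 and 0 by limma-voom, beside 17.5%, 11.2% and 4.74% of all genes. Without IL-21, no member was called at 6 h against 0 h, with 0 genes called (0.0%), or at 72 h against 6 h, with 1718 called (11.5%), where 2 members (Eomes and Runx3) had an unadjusted p below 0.05, DESeq2 called both and limma-voom called Eomes. Of all genes, 25.4%, 23.1% and 19.8% met these 3 rules at 72 h against 6 h, so that 2 of 6 members is near the share of all genes. At 6 h against 0 h, 0 members met any of them, beside 269 genes (1.81%) at an unadjusted p, 0.356% with DESeq2 and 0.0% with limma-voom. The pairs did not overlap for 2 members in each, against 32.7% and 48.4% of all genes. The comparisons at 72 h share the 2 libraries without IL-21, and those at 6 h likewise.

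Eomes was 11.8 and 9.83 RPKM at 0 h, 11.8 and 14.3 at 6 h, 11.3 and 13.9 at 24 h and 17.0 and 49.7 at 72 h without IL-21. With IL-21 it was 12.2 and 15.0 RPKM at 0 h, 6.86 and 7.79 at 6 h, 10.4 and 9.42 at 24 h and 9.74 and 15.3 at 72 h. At 6, 24 and 72 h both IL-21 libraries lay below both libraries without it. At 0 h, where IL-21 had no time to act, they lay above, which shows the spread between libraries. The log2 fold change with IL-21 was -0.83 (SE 0.44, adjusted p = 1) at 6 h, -0.35 (SE 0.43, adjusted p = 1) at 24 h and -1.42 (SE 0.44, adjusted p = 0.0977) at 72 h. The value at 72 h moved with the library at 72 h that was left out, from -0.45 without replicate 2 to -1.96 (adjusted p = 0.00135) without replicate 1. The mean over the 3 times was -0.87 (SE 0.25, adjusted p = 0.0926), called by DESeq2 (adjusted p = 0.0116) and with the RPKM filter (adjusted p = 0.0489). At 72 h against 6 h without IL-21, Eomes had a log2 fold change of 1.35 (SE 0.44, adjusted p = 0.0706). It was 0.39 without replicate 2 at 72 h and 1.86 (adjusted p = 0.00161) without replicate 1. Beside it, the 4 markers of dividing cells summed to 216.9 and 269.97 RPKM at 6 h and to 9.49 and 0.696 RPKM at 72 h, and those of type 1 innate lymphoid cells to 25.7 and 19.6 RPKM at 6 h and to 108.5 and 10.1 RPKM at 72 h, and their part in this and in the Runx3 difference was not tested. With IL-21 at 72 h the sums were 35.9 and 25.1 RPKM for dividing cells, 115.5 and 132.9 RPKM for type 1 innate lymphoid cells, 170.3 and 226.6 RPKM for T cells (128.9 and 40.4 RPKM without IL-21) and 63.3 and 37.1 RPKM for macrophages (10.2 and 0 RPKM without it), with Cd68 alone of the 7 macrophage markers above 0 counts. All 4 sums were higher with IL-21 without overlap at 72 h. At 6 h the T cell and macrophage sums were lower and the innate lymphoid and cNK sums higher with IL-21, and at 24 h the macrophage sum was lower, each without overlap. The part of these cells in the differences with IL-21 was not tested. At 6, 24 and 72 h and in the inhibitor culture alike, the Eomes libraries with IL-21 were the lower pair, and none of these differences passed the main test. Without TMM scaling the pairs at 24 h overlapped (11.7 and 9.80 RPKM with IL-21, 11.5 and 13.8 RPKM without). Tbx21 was at 0 counts in replicate 1 at 72 h without IL-21 and at 2.51 RPKM in replicate 2, and its IL-21 and untreated pairs overlapped at 6 and 72 h. At 24 h it was 0.0522 and 1.47 RPKM without and 1.39 and 1.59 RPKM with IL-21, which overlapped as well.

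Runx3 was 2.54 and 1.65 RPKM at 0 h, 2.27 and 3.17 at 6 h, 3.98 and 2.61 at 24 h and 5.94 and 7.04 at 72 h without IL-21. With IL-21 it was 2.33 and 4.91 RPKM at 0 h, 3.99 and 5.21 at 6 h, 3.81 and 3.75 at 24 h and 3.00 and 3.79 at 72 h. The IL-21 pair was the higher one at 6 h and the lower one at 72 h. The log2 fold changes were 0.76 (SE 0.48, adjusted p = 1) at 6 h and -0.93 (SE 0.49, adjusted p = 0.318) at 72 h, and their difference was -1.69 (SE 0.69, adjusted p = 0.281), where 0 members and 367 genes (2.47%) were called. At an unadjusted p 1 member stood out for that difference, and DESeq2 and limma-voom called 0, beside 14.5%, 8.99% and 2.84% of all genes. Without IL-21, Runx3 at 72 h stood above 6 h by 1.25 on the log2 scale (SE 0.49, adjusted p = 0.130), a difference called by DESeq2 (adjusted p = 0.0233). Runx1 with IL-21 was 0.193 and 0.340 RPKM at 6 h, 0.769 and 0.459 at 24 h and 1.04 and 1.46 at 72 h. Without IL-21 it was 0.0732 and 0.258, 0.300 and 0.117, and 0.123 and 0.713 RPKM. The IL-21 pair was the higher one at 24 and 72 h and overlapped the other at 6 h. The mean log2 fold change over the 3 times was 1.27 (SE 0.54, adjusted p = 0.249), and 1.86 (adjusted p = 0.0478) without replicate 2 at 72 h. At 0 h, where IL-21 had no time to act, both IL-21 libraries (0.652 and 0.488 RPKM) already lay above both others (0.111 and 0.148 RPKM). The group means with and without IL-21 were 0.570 and 0.130 RPKM there. They were 0.614 and 0.209 RPKM at 24 h and 1.25 and 0.418 RPKM at 72 h. A separation of this kind thus also arose between libraries that IL-21 had no time to change.

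Runx2 with IL-21 was 1.48 and 1.48 RPKM at 6 h and 1.61 and 1.38 at 24 h, against 1.11 and 0.219, and 0.272 and 1.076 RPKM without it. The IL-21 pair was the higher one at both times, as in the inhibitor culture, with log2 fold changes of 1.16 (SE 1.63, adjusted p = 1) and 1.15 (SE 1.63, adjusted p = 1). At 72 h without IL-21, replicate 2 had 0 counts of Runx2 and replicate 1 had 2.01 RPKM, and fitted folds that use this pair bound nothing, also under the other settings. Cbfb lay between 14.7 and 39.2 RPKM at all times, and its pairs with and without IL-21 overlapped at 6, 24 and 72 h.

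**Figure D3:**
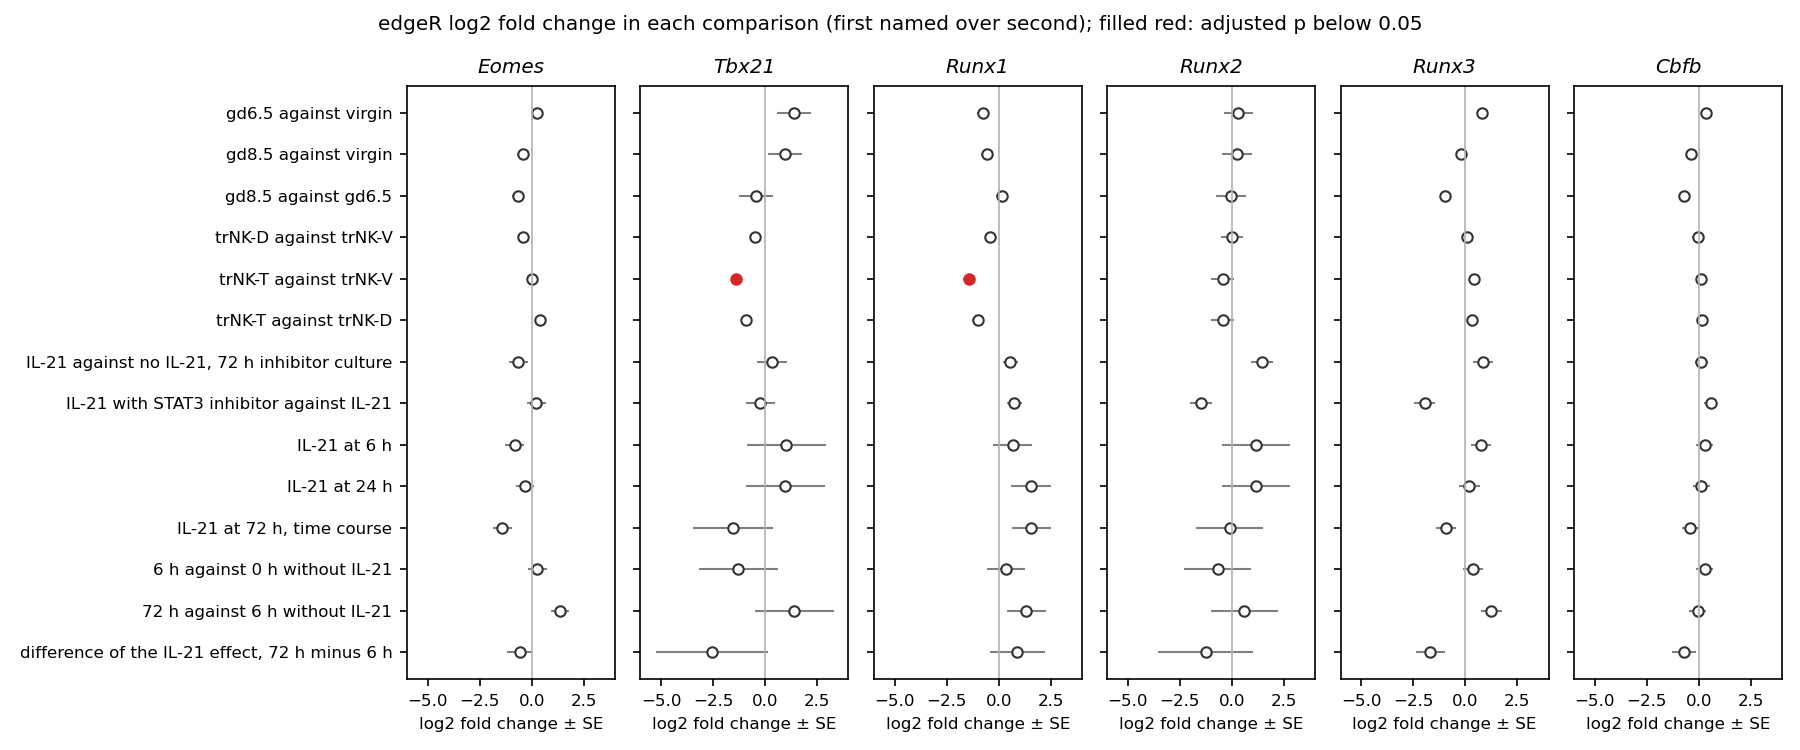
edgeR log2 fold change (first-named group over second) of each gene in 14 comparisons, with the SE as a horizontal bar; red points have an adjusted p below 0.05. The 2 red points are Tbx21 (-1.42) and Runx1 (-1.42) in trNK-T against trNK-V, and the widest bars are those of Tbx21 and Runx2 in the time course.

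Genes known to depend on, or to act with, these factors were counted by list. For trNK-T against trNK-V, the test called 4 of 16 tested genes known to depend on T-bet or Eomes as higher and 4 as lower, beside 4.23% higher and 3.7% lower among all genes, shares that hold for the next lists too. The median log2 fold change of the list was -1.32, beside -0.05 for all genes. Cxcr3, a chemokine receptor induced by T-bet, was 136.9 and 113.9 RPKM in trNK-V, 53.0 and 41.1 in trNK-D and 5.67 and 4.02 in trNK-T, a log2 fold change of -4.69 (SE 0.28, adjusted p = 0.00254). The 3 subsets again formed 3 steps without overlap. Klrg1, an inhibitory receptor of mature NK cells, rose by 2.11 (SE 0.18, adjusted p = 0.00648) and Prf1, which encodes perforin, by 2.08 (SE 0.21, adjusted p = 0.00938) on the log2 scale. Of 12 tested genes known to depend on Runx factors, 2 were higher (Prf1 and the granzyme gene Gzmb) and 3 lower, with a median of -1.04. Tox, a regulator of NK cell development, was among the lower ones, with 21.6 and 25.2 RPKM in trNK-V and 3.58 and 2.18 in trNK-T. Prf1 and Gzmb stand on both lists.

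Of 13 tested Runx partners and corepressors, 0 were higher and 2 lower for trNK-T against trNK-V (median -0.56). Ets1, which binds DNA together with Runx1, was 75.7 and 88.9 RPKM in trNK-V, 49.2 and 40.5 in trNK-D and 23.3 and 23.5 in trNK-T (log2 fold change -1.82, SE 0.17, adjusted p = 0.00831). It formed the same steps as Runx1. Tle3, a Groucho-type corepressor that Runx proteins recruit, fell by 1.40 on the log2 scale (SE 0.32, adjusted p = 0.0477). Of 27 tested NK lineage regulators, 2 were higher and 9 lower (median -0.94). Stat4, which relays IL-12 signals, had a log2 fold change of -2.17 (SE 0.22, adjusted p = 0.00938) and Zeb2, which acts downstream of T-bet in NK cell maturation, of -3.94 (SE 0.42, adjusted p = 0.0112). Ets1, Tox and Zeb2 stand among these regulators and also on the Runx partner, Runx-dependent and T-bet- or Eomes-dependent lists, respectively. The lower counts of the lists thus share genes. The T cell, macrophage and innate lymphoid marker sums given above were likewise lower in both trNK-T than in both trNK-V libraries, those of dividing cells were higher, and their part in the changes of these list genes was not tested. Of the 15 other T-box genes, 2 passed the filter in this experiment and 0 were called. In the gestation and inhibitor culture comparisons, none of the 5 lists had a called gene, and for trNK-T against trNK-D the only one was Cxcr3 (log2 fold change -3.28, adjusted p = 0.0194).

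In the time course, the test called 4 of 15 T-bet- or Eomes-dependent genes as higher and 0 as lower with IL-21 at 72 h (median 0.48, beside 0.01 for all genes), where 4.46% of all genes were higher. In fits of only the groups compared, 0 genes were called with IL-21 at 72 h and 0 at 72 h against 6 h, which ends every call of a list gene given here for the time course. The T cell, macrophage, innate lymphoid and dividing-cell marker sums, higher with IL-21 at 72 h as given above, stand beside these list counts too, and their part was not tested. Gzmb had a log2 fold change of 1.89 (SE 0.31, adjusted p = 0.00395), the chemokine gene Ccl5 of 1.87 (SE 0.34, adjusted p = 0.00882) and Klrg1 of 1.68 (SE 0.34, adjusted p = 0.0137). At 72 h against 6 h without IL-21, Ccl5 was higher (2.95, adjusted p = 4.1e-04), Gzmb lower (-1.72, adjusted p = 0.00423), and of 27 NK lineage regulators 3 were higher and 1 lower (median 0.68, beside -0.25 for all genes), where 2.74% of all genes were higher and 8.81% lower, 11.5% together. Ets1 (1.503, adjusted p = 0.0108) and Tcf7, a regulator of early NK cells (1.80, adjusted p = 0.0161), were higher, and Myb, a regulator of progenitors, was at 0 counts in both libraries at 72 h and at 0.625 and 0.417 RPKM at 6 h. Ets1 was also the 1 of 11 Runx partners called, and Gzmb the 1 of 10 Runx-dependent genes. At 6 and 24 h no gene of the 5 lists was called with IL-21.

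Single cells were analysed as 1 pooled sample. The 2 deposited tables held the same 15175 barcodes and different genes (6821 and 28416, with 0 in common), and carried no tag for virgin or gd8.5 mice, so no test was made. After limits of 200 to 2500 genes per cell and less than 10% mitochondrial UMIs, 8909 cells formed 16 clusters, which were found without the 6 members and named from marker genes that also exclude them. The trNK-like class held 4239 cells in 6 clusters and the cNK-like class 1012 cells. Only 2 of the 6, those led by Gzmc and Tnfrsf9 or by Mt2 and Tff1, raised at least 3 trNK markers against all other cells. The other 4 raised them against B-like cells alone, and the one with raised interferon genes also raised Cxcr6, a marker of type 1 innate lymphoid cells. At a coarser clustering the class held 2640 cells. With no upper limit on genes per cell, 13077 cells were kept and the trNK-like class held 8524. Its median depth was then 6579 UMIs, against 3912 with the limit. The limit thus left deep trNK-like cells out of the levels, shares and cluster sizes below. Doublets were neither called nor removed. Levels are UMIs scaled to 1 library size (CPM) with exact Poisson 95% intervals, which cover counting error only.

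Both T-box genes were present in both NK classes, in different balance. Eomes was 389 CPM (380 to 399) in trNK-like and 470 CPM (440 to 502) in cNK-like cells, against 71.0 CPM (51.6 to 95.3) in B-like cells, a class that should lack it. Tbx21 was 371 CPM (344 to 399) in cNK-like cells and 78.6 CPM (74.4 to 82.9) in trNK-like cells, against 32.3 CPM (19.7 to 49.8) in B-like cells. For both genes the intervals of the 2 NK classes lay apart, and further for Tbx21 than for Eomes. The trNK-like Tbx21 level moved with the settings, to 144 CPM with limits of 200 to 2500 UMIs per cell, 54.4 CPM with no upper limit on genes and 46.1 CPM at a coarser clustering. Tbx21 made up 44.1% (41.6% to 46.6%, exact binomial 95% interval) of the Eomes and Tbx21 UMIs in cNK-like cells and 16.8% in trNK-like cells. With each cell thinned to 1000 UMIs, 30.0% of cNK-like, 8.89% of trNK-like and 2.098% of B-like cells had a Tbx21 UMI, leaving out 38, 314 and 14 shallower cells. Unthinned, those shares were 45.3%, 21.96% and 4.33% at median depths of 1722, 3912 and 1825 UMIs.

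Within the trNK-like class, Eomes lay between 296 and 429 CPM in all 6 clusters, while Tbx21 ranged from 12.5 to 168 CPM. Tbx21 was 168 CPM (123 to 224) in the cluster with raised interferon genes (106 cells) and 164 CPM (152 to 177) in the cluster with raised Tcf7 and Tox (1305 cells), which overlapped. It was 99.5 CPM (79.04 to 124) in the cluster with raised small-RNA genes (443 cells), whose interval just met that of the interferon cluster. Next came the dividing cluster (516 cells) with 66.9 CPM (56.9 to 78.1) and the cluster with raised Gzmc and Tnfrsf9 (1070 cells) with 64.3 CPM (57.5 to 71.8), again overlapping. The cluster led by Mt2, Tff1 and Ctsg (799 cells), which raised Gzmd, Gzme and Gzmf as the Gzmc and Tnfrsf9 cluster did, was lowest, with 12.5 CPM (9.37 to 16.3), at or below the B-like level and so at background, although Eomes there was 429 CPM (410 to 449). In that cluster Ncr1 (140 CPM) and Klrb1c (88.5 CPM) were also near their B-like levels (110 and 119 CPM). The Tbx21 share of T-box UMIs was 28.0% in the Tcf7 and Tox cluster, 15.1% in the Gzmc and Tnfrsf9 cluster and 2.83% in the Mt2 and Tff1 cluster.

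Runx1 followed the same order as Tbx21 among these 3 clusters, with 65.2 CPM (57.5 to 73.6), 31.0 CPM (26.3 to 36.3) and 15.9 CPM (12.4 to 20.2), but none of them lay above the B-like level of 83.9 CPM (62.6 to 110). In cNK-like cells Runx1 was 155 CPM (138 to 174), and in macrophage-like cells 192 CPM (176 to 209), the highest class. Runx3 was 363 CPM (336 to 391) in cNK-like and 307 CPM (299 to 315) in trNK-like cells, against 158 CPM (128 to 193) in B-like and 203 CPM (167 to 244) in T-like cells. Across the trNK-like clusters it ran from 211 CPM (193 to 230) in dividing cells to 380 CPM (361 to 399) in the Tcf7 and Tox cluster. It was 325 CPM (309 to 341) in the Gzmc and Tnfrsf9 cluster and 268 CPM (253 to 284) in the Mt2 and Tff1 cluster. Over the Tcf7 and Tox, the Gzmc and Tnfrsf9, and the Mt2 and Tff1 clusters, Runx3 thus fell in the order of Tbx21. Over all 6 clusters it did not, being lowest in dividing cells. In the sorted subsets both trNK-T libraries were the highest for Runx3. Runx2 was low in trNK-like cells (30.3 CPM, 27.7 to 33.0) and higher in cNK-like cells (83.2 CPM, 70.7 to 97.3), against 8.06 CPM (2.62 to 18.8) in B-like cells. Cbfb varied least between these classes, with 136 CPM (130 to 141) in trNK-like, 140 CPM (124 to 158) in cNK-like, 158 CPM (128 to 193) in B-like and 97.4 CPM (86.1 to 110) in macrophage-like cells. In dividing trNK-like cells it was 180 CPM (163 to 197).

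**Figure D4:**
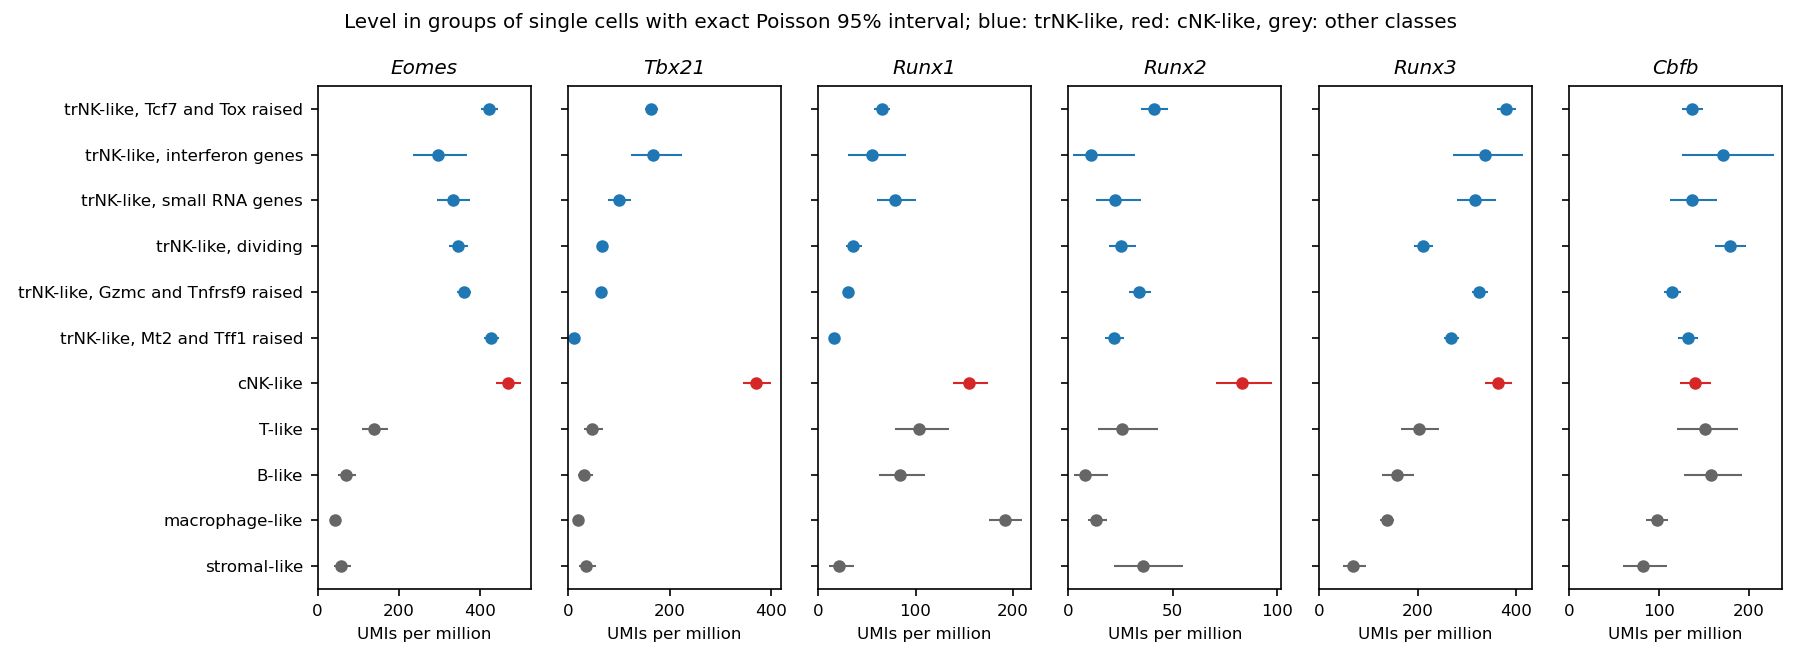
Level of each gene (CPM, linear axes that differ between genes) in 6 trNK-like clusters (blue), cNK-like cells (red) and 4 other classes (grey) with bars for exact Poisson 95% intervals of the summed UMIs. Eomes is high in every trNK-like cluster and in cNK-like cells, whereas Tbx21 falls from 371 CPM in cNK-like cells to 12.5 CPM in the Mt2 and Tff1 cluster.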

How the data were processed

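Bulk counts were deposited as whole reads per gene. The submitters' notes name HISAT2 2.1.0, featureCounts and mm10, while the methods of the authors name RSEM. In every library 99.897% or more of the reads fell in the 54353 genes that all 34 files list; the file of virgin replicate 1 lists 55573 genes and the others 54446. The deposited single-cell tables hold UMI counts per cell (BD Rhapsody, GRCm39).

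Counts were tested per experiment with edgeR 4.0.16 (quasi-likelihood, TMM, filterByExpr with a minimum count of 10) and adjusted over all genes tested. DESeq2 1.42.0, limma-voom 3.58.1, other filters and scalings, a replicate block and leaving out each library were the alternatives. A filter of RPKM above 10 was an alternative only, since Runx1 and Runx2 lie below it. Fits were tested on simulated data with known changes. Single cells were clustered with scanpy 1.11.5 (2000 variable genes, 20 components, Leiden resolution 0.8), and thresholds for naming clusters were set after the clusters were seen. Every member is named in every comparison, the 3 genes of most like pattern per member, and up to 3 called genes per list. Members and gene lists were chosen with earlier results of these data known. Chromatin accessibility and other genotypes were not used here.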

Additional observations from a re-analysis of the deposited data

Results flagged for a closer look

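The Runx3 libraries with IL-21 lay on opposite sides of those without it at 6 h and at 72 h of the time course, and neither difference passed the edgeR test (adjusted p = 1 and 0.318). Pairs did not overlap for 41.8% of all genes at 6 h and 29.5% at 72 h. Both IL-21 libraries lay above both libraries without it at 6 h (3.99 and 5.21 against 2.27 and 3.17 RPKM) and below both at 72 h (3.00 and 3.79 against 5.94 and 7.04 RPKM). The difference of the log2 fold changes, 72 h minus 6 h, was -1.69 (SE 0.69) and did not pass the edgeR test (adjusted p = 0.281). No group had enough libraries to test single libraries as outliers.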

How the results depend on the processing

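Of 1546 member results under alternatives, 1445 kept their direction and side of the threshold, 60 changed direction (50 of them when 1 library was left out), 33 became significant in the same direction and 8 lost significance. A fold change that rounded to 0.00 was not counted as a change of direction. This left out Runx2 in trNK-D against trNK-V (-0.57 to 0.96 without 1 library) and Eomes in trNK-T against trNK-V (-0.037 to 0.048). Of those that changed direction, 3 were also called, all of Runx2 without replicate 1 at 72 h (log2 fold changes of 11.51, -11.05 and 10.37), where the library kept had 0 counts. The calls of Tbx21 and Runx1 in trNK-T against trNK-V are the only main calls. The common biological coefficient of variation was 0.544 to 0.909, which limits what 2 libraries a group can show. The cause of each change below was not tested.

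With the RPKM filter, the number of members called was 1 for gd6.5 against virgin (420 genes called), 1 for trNK-T against trNK-V (1621 genes), 1 for 72 h against 6 h (1032 genes) and 1 for the mean IL-21 effect (501 genes in the main fit). Without a gene filter, the number of members called was 2 for gd6.5 against virgin (1216 genes), 1 for gd8.5 against virgin (563 genes), 1 for gd8.5 against gd6.5 (570 genes), 2 for trNK-T against trNK-D (741 genes) and 1 for Stattic (461 genes). The main fit called 5 genes for gd6.5 against virgin, so these filters moved the calls of all genes, not of the members alone. They also changed which genes were tested. With DESeq2, the number of members called was 1 for gd6.5 against virgin, 2 for gd8.5 against gd6.5, 2 for trNK-T against trNK-D, 1 for Stattic, 1 for IL-21 at 72 h, 2 for 72 h against 6 h and 1 for the mean IL-21 effect. In fits of only the groups compared, the number of members called was 1 for gd8.5 against gd6.5 (88 genes called, against 0 in the main fit). With limma-voom, the number of members called was 1 for 72 h against 6 h. With the RPKM filter, the number of genes called was 420 for gd6.5 against virgin, 19 for gd8.5 against virgin, 15 for trNK-D against trNK-V, 86 for trNK-T against trNK-D, 12 for IL-21 in the inhibitor culture, 123 for Stattic, 77 for IL-21 at 6 h, 63 for IL-21 at 24 h, 329 for IL-21 at 72 h, 1032 for 72 h against 6 h and 149 for the IL-21 difference between 72 h and 6 h. Without a gene filter, the number of genes called was 1216 for gd6.5 against virgin, 563 for gd8.5 against virgin, 570 for gd8.5 against gd6.5, 617 for trNK-D against trNK-V, 2589 for trNK-T against trNK-V, 741 for trNK-T against trNK-D, 146 for IL-21 in the inhibitor culture, 461 for Stattic, 73 for IL-21 at 6 h, 74 for IL-21 at 24 h, 1532 for IL-21 at 72 h, 6 for 6 h against 0 h, 873 for the IL-21 difference between 72 h and 6 h and 1176 for the mean IL-21 effect. With DESeq2, the number of genes called was 1304 for gd6.5 against virgin, 402 for gd8.5 against virgin, 614 for gd8.5 against gd6.5, 598 for trNK-D against trNK-V, 3026 for trNK-T against trNK-V, 666 for trNK-T against trNK-D, 192 for IL-21 in the inhibitor culture, 751 for Stattic, 206 for IL-21 at 6 h, 219 for IL-21 at 24 h, 2310 for IL-21 at 72 h, 53 for 6 h against 0 h, 3430 for 72 h against 6 h, 1338 for the IL-21 difference between 72 h and 6 h and 1670 for the mean IL-21 effect. With limma-voom, the number of genes called was 152 for gd6.5 against virgin, 8 for gd8.5 against virgin, 8 for trNK-D against trNK-V, 3 for trNK-T against trNK-D, 4 for IL-21 in the inhibitor culture, 19 for Stattic, 66 for IL-21 at 6 h, 12 for IL-21 at 24 h and 2951 for 72 h against 6 h. With the replicate block, the number of genes called was 0 for gd6.5 against virgin, 0 for gd8.5 against virgin and 0 for Stattic. In fits of only the groups compared, the number of genes called was 0 for gd6.5 against virgin, 0 for gd8.5 against virgin, 88 for gd8.5 against gd6.5, 0 for trNK-D against trNK-V, 5 for trNK-T against trNK-D, 1 for IL-21 in the inhibitor culture, 0 for Stattic, 142 for IL-21 at 24 h, 0 for IL-21 at 72 h, 0 for 72 h against 6 h and 8 for the IL-21 difference between 72 h and 6 h.

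With the RPKM filter, the log2 fold change turned to -0.020 for Runx3 in trNK-D against trNK-V, -0.066 for Cbfb in trNK-T against trNK-V and 0.056 for Cbfb in 72 h against 6 h. With limma-voom, the log2 fold change turned to 1.40 for Tbx21 in IL-21 at 72 h, 4.05 for Runx2 in IL-21 at 72 h, -1.56 for Tbx21 in 72 h against 6 h, -3.21 for Runx2 in 72 h against 6 h, 0.83 for Tbx21 in the IL-21 difference between 72 h and 6 h and 2.48 for Runx2 in the IL-21 difference between 72 h and 6 h. With the replicate block, the log2 fold change turned to 0.36 for Runx2 in IL-21 at 72 h. Same-numbered libraries were not shown to be paired, since their deviations correlated at -0.103 to 0.193; the replicate block kept both calls, Tbx21 at -1.43 (adjusted p = 0.0241) and Runx1 at -1.45 (adjusted p = 0.0355), and called no other member.

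Leaving out 1 library at a time gave these ranges of called counts: 0 to 2 members for gd6.5 against virgin, 0 to 1411 genes for gd6.5 against virgin, 0 to 1 members for gd8.5 against virgin, 0 to 762 genes for gd8.5 against virgin, 0 to 1 members for gd8.5 against gd6.5, 0 to 295 genes for gd8.5 against gd6.5, 0 to 16 genes for trNK-D against trNK-V, 0 to 2 members for trNK-T against trNK-V, 87 to 1171 genes for trNK-T against trNK-V, 0 to 20 genes for trNK-T against trNK-D, 0 to 11 genes for IL-21 in the inhibitor culture, 0 to 38 genes for Stattic, 0 to 48 genes for IL-21 at 6 h, 1 to 39 genes for IL-21 at 24 h, 0 to 2 members for IL-21 at 72 h, 517 to 2514 genes for IL-21 at 72 h, 0 to 2 members for 72 h against 6 h, 793 to 3445 genes for 72 h against 6 h, 0 to 1 members for the IL-21 difference between 72 h and 6 h, 113 to 1809 genes for the IL-21 difference between 72 h and 6 h, 0 to 2 members for the mean IL-21 effect and 233 to 2088 genes for the mean IL-21 effect. The log2 fold changes that changed direction ranged from -0.086 to 0.73 for Eomes in gd6.5 against virgin, -0.45 to 2.12 for Runx2 in gd6.5 against virgin, -0.78 to 0.045 for Eomes in gd8.5 against virgin, -0.53 to 2.06 for Runx2 in gd8.5 against virgin, -0.25 to 0.46 for Runx1 in gd8.5 against gd6.5, -0.29 to 0.20 for Runx2 in gd8.5 against gd6.5, -0.086 to 0.26 for Runx3 in trNK-D against trNK-V, -0.32 to 0.28 for Cbfb in trNK-D against trNK-V, -1.02 to 0.51 for Runx2 in trNK-T against trNK-V, -0.14 to 0.45 for Cbfb in trNK-T against trNK-V, -0.24 to 0.97 for Tbx21 in IL-21 in the inhibitor culture, -0.060 to 0.31 for Cbfb in IL-21 in the inhibitor culture, -0.40 to 0.67 for Eomes in Stattic, -1.50 to 0.43 for Tbx21 in Stattic, -0.54 to 1.73 for Tbx21 in IL-21 at 6 h, -0.17 to 0.63 for Cbfb in IL-21 at 6 h, -0.078 to 0.52 for Runx3 in IL-21 at 24 h, -0.21 to 0.57 for Cbfb in IL-21 at 24 h, -2.60 to 8.57 for Tbx21 in IL-21 at 72 h, -1.10 to 11.51 for Runx2 in IL-21 at 72 h, -0.88 to 0.34 for Cbfb in IL-21 at 72 h, -0.84 to 0.99 for Runx1 in 6 h against 0 h, -2.28 to 0.049 for Runx2 in 6 h against 0 h, -8.70 to 2.34 for Tbx21 in 72 h against 6 h, -0.41 to 2.53 for Runx1 in 72 h against 6 h, -11.05 to 2.20 for Runx2 in 72 h against 6 h, -0.84 to 0.42 for Cbfb in 72 h against 6 h, -1.11 to 0.40 for Eomes in the IL-21 difference between 72 h and 6 h, -3.61 to 7.57 for Tbx21 in the IL-21 difference between 72 h and 6 h, -0.27 to 2.66 for Runx1 in the IL-21 difference between 72 h and 6 h, -2.86 to 10.37 for Runx2 in the IL-21 difference between 72 h and 6 h, -1.17 to 0.068 for Cbfb in the IL-21 difference between 72 h and 6 h, -0.38 to 3.51 for Tbx21 in the mean IL-21 effect and -0.090 to 0.12 for Runx3 in the mean IL-21 effect. Fold changes of Tbx21 and Runx2 that use the libraries without IL-21 at 72 h, where 1 of the 2 had 0 counts of the gene, bound nothing under any setting. Runx1 was not among the genes tested with the RPKM filter.

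In the trNK-like single cells, the level with the setting 200 to 2500 UMIs per cell was 436 CPM for Eomes, 144 CPM for Tbx21, 67.7 CPM for Runx1, 35.2 CPM for Runx2 and 366 CPM for Runx3; the level with the setting no upper limit on genes per cell was 54.4 CPM for Tbx21, 32.7 CPM for Runx1, 321 CPM for Runx3 and 144 CPM for Cbfb; the level with the setting Leiden resolution 0.4 was 46.1 CPM for Tbx21, 28 CPM for Runx1, 27.5 CPM for Runx2 and 281 CPM for Runx3.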

Other observations

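By likeness of pattern over the 34 libraries (Pearson r of log2 RPKM centred within each experiment, 11995 genes, libraries of one experiment sharing depth and preparation), the genes most like Eomes were Srpk2 (r = 0.781), Hps1 (0.766) and Cdip1 (0.758). For Tbx21 they were Cfap43 (0.699), Nle1 (0.694) and Gnal (0.685), and for Runx1 Gm17055 (0.783), Taf7 (0.740) and Fos (0.732). For Runx2 they were Man1b1 (0.688), Zfp442 (0.671) and Rhoh (0.661), for Runx3 Slc2a1 (0.761), Eif2b5 (0.759) and Ablim1 (0.735), and for Cbfb Enpp4 (0.798), Nedd1 (0.782) and Papola (0.757). Among the 6 members themselves the highest value was that of Eomes and Runx3 (0.395) and the lowest that of Eomes and Runx2 (-0.273).

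A cluster of 1082 single cells was left unnamed. It raised markers of mast cells, gamma delta T cells and type 1 innate lymphoid cells (Cxcr6, Il7r, Cd200r1 and Rora) together. It held Eomes at 308 CPM, Tbx21 at 148 CPM and Runx3 at 362 CPM.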
